A study of Mus musculus with 22 samples.

Results

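Chemokines are small secreted proteins that steer migrating cells, and chemokine receptors are the G protein-coupled receptors that read them. The genes described here were every gene on the array whose probe carried a single symbol made of Ccl, Cxcl, Xcl, Cx3cl, Ccr, Cxcr, Xcr, Cx3cr or Ackr followed directly by a digit. They numbered 56 of 19752 genes, 34 of them ligands and 22 receptors, and the receptors included the 4 atypical ones (Ackr1 to Ackr4). RNA had been taken from thymic cells labelled MECs, the medullary epithelial cells, of C57Bl/6 mice that carried either no working Aire gene (Aire-/-, called KO) or 2 wild-type copies (Aire+/+, called WT). Cells of each genotype had been given Etopo, Topo, both drugs (EtopoTopo) or DMSO, the solvent; the drugs are named as the labels abbreviate them, and their doses and times are not given in the sources used here. The KO Etopo and KO EtopoTopo groups held 2 arrays each and the other 6 groups 3 arrays each, which made 22 arrays. Mice were 4 weeks old for the 5 EtopoTopo arrays, WT DMSO 3 and WT Etopo 3, and otherwise 6 weeks old, so that EtopoTopo and age cannot be told apart except through WT DMSO 3 and WT Etopo 3.

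Medullary epithelial cells present tissue proteins to developing T cells, and Aire is the transcriptional regulator that lets them express many genes otherwise restricted to other tissues. Chemokines guide thymocytes through this process: the Ccr7 ligands Ccl19 and Ccl21 draw maturing thymocytes into the medulla, the Ccr4 ligands Ccl17 and Ccl22 act on them there, Ccl25 acts through Ccr9, and Xcl1 places dendritic cells that bear Xcr1. Atypical receptors bind chemokines without signalling through G proteins and remove them from the surroundings. In whole RNA from a preparation, more transcript per cell and more cells of a type cannot be told apart.

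Values are log2 of the deposited probe intensity, so a difference of 1 is a doubling, and they compare 1 probe between arrays, never 1 gene with another. The median probe intensity per array ran from 236 to 264, with 242 to 250 on KO DMSO arrays and 259 to 264 on WT DMSO arrays, and replicates of a group correlated at 0.963 or more over all genes. Mature MEC markers averaged 11.05 to 11.74 on every array. The Aire probe read 11.43 to 12.96 on KO arrays and 11.27 to 12.44 on WT arrays, so it does not show the deletion and does not check the genotype labels. Thymocyte markers averaged 8.72 on KO DMSO 1 and 8.30 on WT DMSO 1, against 6.93 to 7.58 on the other 20 arrays. The array KO EtopoTopo 1 had the narrowest spread of intensities, with 3.88 log2 units between its 10th and 90th percentiles against 4.32 to 5.01 on the other 21. WT EtopoTopo 1 and 2 are titled with both drugs but carry a treatment label of Etopo alone. Xist read 11.39 to 12.57 on all 22 arrays, including WT DMSO 1, WT Etopo 2 and WT Topo 2, which are labelled male. Nothing states that replicates came from separate mice, so the tests measure the spread between arrays, which may be technical. As a mark of dim signal, the 90th percentile of the mean log2 values of 1190 odorant and vomeronasal receptor genes, which are mostly silent in thymus, was 6.72; 46 of the 56 genes averaged above it and 10 (Ccl4, Ccl12, Ccl24, Ccl26, Ccr1, Ccr1l1, Ccr8, Cxcl15, Cxcr2 and Cxcr6) did not.

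Most chemokine ligands that differed between genotypes were lower in KO cells, whichever treatment the cells had been given. Under DMSO, 27 of the 56 genes passed the test at an adjusted p under 0.05 (limma, Benjamini-Hochberg over all genes), 5 higher and 22 lower in KO, when 19.4% of all genes passed (7.4% higher and 12% lower). Ligands made up most of the decrease: 18 of 34 were lower and 1 was higher, whereas 4 receptors were lower and 4 higher of 22. The median change of the 56 genes under DMSO was -0.31, and that of all genes was -0.01; after quantile normalization 21 genes passed, 3 higher and 18 lower, and the median was -0.20. Under Etopo 20 genes passed, 3 higher and 17 lower, when 12.6% of all genes did (4.5% higher and 8.07% lower). Under Topo 21 passed, 4 higher and 17 lower, against 15% of all genes (5.37% higher and 9.62% lower). Under EtopoTopo 16 passed, 4 higher and 12 lower, against 10.4% of all genes (4.32% higher and 6.12% lower). The median change of the 56 genes was -0.33 under Etopo, -0.17 under Topo and -0.002 under EtopoTopo, and that of the 34 ligands was -0.61, -0.60, -0.38 and -0.38 under DMSO, Etopo, Topo and EtopoTopo. These 4 comparisons share no arrays, but they share each gene's estimate of the spread from all 22 arrays and are not fully independent. With 1 array left out in turn, 18 of the 27 calls under DMSO held throughout, as did 12 of 20 under Etopo, 13 of 21 under Topo and 7 of 16 under EtopoTopo; the calls of Ccl3, Ccl6, Ccl9, Ccl28, Ccr6 and Ackr2 held in all 4.

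Of the 56 genes, 30 passed in at least 1 of the 4 comparisons and none passed in opposite directions. The 12 genes that were lower in all 4 were ligands (Ccl1, Ccl3, Ccl5, Ccl6, Ccl8, Ccl9, Ccl20, Ccl22, Ccl28, Cx3cl1, Cxcl5 and Cxcl17), and 3.06% of all genes had that pattern. The 2 that were higher in all 4 were receptors, Ccr6 and Ackr2, a pattern of 1.96% of all genes. In 6 ligands (Ccl3, Ccl6, Ccl8, Ccl9, Ccl28 and Cx3cl1) every one of the 10 KO arrays lay below every one of the 12 WT arrays, as did 3.56% of all genes. In Ccr6 and Ackr2 all 10 KO arrays lay above all 12 WT arrays, as did 1.78% of all genes.

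Some of these calls depend on the processing. Quantile normalization ended those of Ccr1l1, Cxcl5, Cxcl14, Cxcl16, Cxcr2, Cxcr5 and Cxcr6 under DMSO (adjusted p 0.0521 to 0.276), of Cxcl5 and Xcr1 under Topo and of Ccl20 under EtopoTopo. Without the 2 DMSO arrays high in thymocyte transcripts the DMSO calls of Ccl5, Ccl7, Cx3cl1, Cxcl5, Cxcl14 and Cxcr2 ended (adjusted p 0.0604 to 0.203). With age as a covariate those of Ccl7, Ccr1l1, Cxcl14, Cxcr2 and Cxcr5 under DMSO, Ccl17 under Etopo and Ccl20 under EtopoTopo ended. Without WT EtopoTopo 1 and 2, whose labels conflict, the EtopoTopo calls of Ccl1, Ccl5, Ccl8, Ccl12, Ccl20, Ccl22, Cx3cl1, Cxcl5 and Cxcl17 ended (adjusted p 0.0604 to 0.252). For 4 of the 27 genes called under DMSO (Ccl28, Cxcl5, Cxcl15 and Xcl1) the KO mean lay under the dim mark and the WT mean above it, so their changes are set against a signal as dim as that of silent genes, and for Ccr1l1, Cxcr2 and Cxcr6 both means lay under it.

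**Figure D1:**
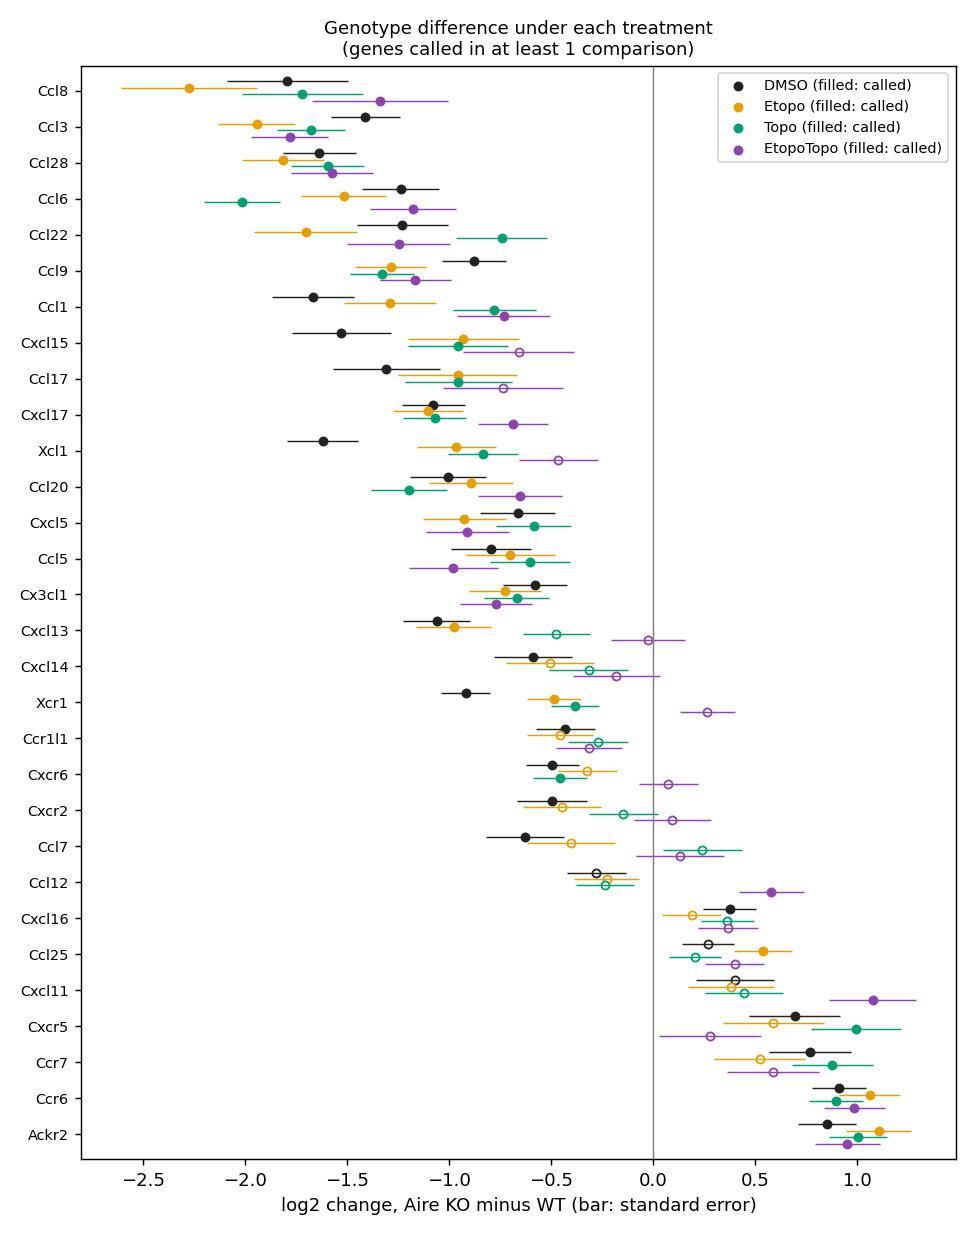
Log2 change of KO against WT (x axis) for the 30 chemokine and receptor genes that passed in at least 1 of the 4 genotype comparisons (rows), with 1 point per treatment, filled where the gene passed, and bars of 1 standard error. Ccl3, Ccl6 and Ccl28 lie between -2.01 and -1.18 under all 4 treatments, while Ccr6 and Ackr2 lie between 0.85 and 1.11.

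The ligands of Ccr4, a receptor of thymocytes entering the medulla, were lower in KO cells. Ccl22 had log2 values of 8.93, 9.45 and 9.07 in KO DMSO cells, against 10.51, 9.94 and 10.69 in WT DMSO cells, a change of -1.23 ± 0.22 (SE, adjusted p 0.000368). Ccl17 had 8.68, 9.40 and 9.50 in KO DMSO cells and 10.08, 10.64 and 10.78 in WT DMSO cells, a change of -1.31 ± 0.26 (SE, adjusted p 0.000923). In both genes the highest KO DMSO array lay below the lowest WT DMSO array; in 31.9% of all genes these groups did not overlap. Ccl22 was also lower in KO than in WT cells under Etopo (-1.70), Topo (-0.74) and EtopoTopo (-1.25). Ccl17 was lower in KO cells under Etopo and Topo, by 0.96 and 0.95, and did not pass under EtopoTopo (-0.74 ± 0.29 (SE, adjusted p 0.123)). Ccr4 itself was bright on all 22 arrays, with 10.73 to 11.78 on KO arrays and 11.32 to 11.80 on WT arrays, and did not pass between genotypes under DMSO (-0.11 ± 0.16 (SE, adjusted p 0.721)). The DMSO calls of Ccl22 and Ccl17 held whichever array was left out. Under the drugs, the Ccl22 call ended without WT Topo 1, WT Topo 2, KO Topo 2 or KO Topo 3 (adjusted p up to 0.144) and without KO EtopoTopo 1 (-0.78, adjusted p 0.101), and that of Ccl17 ended without WT Etopo 1 or 3, either KO Etopo array, WT Topo 2 or KO Topo 2 (adjusted p up to 0.239).

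Cx3cl1, a chemokine made as a membrane protein that can also be shed, lies between Ccl22 and Ccl17 on chromosome 8, and the annotation used here has no other protein-coding gene in the block. Cx3cl1 read 8.25, 8.69 and 8.75 in KO DMSO cells, against 9.09, 9.12 and 9.22 in WT DMSO cells. The change was -0.58 ± 0.16 (SE, adjusted p 0.0114), and it was as large or larger under the other treatments, from -0.77 to -0.67. Across treatments its 10 KO arrays lay at 7.97 to 8.75 and its 12 WT arrays at 8.96 to 9.58, with no overlap. Its receptor Cx3cr1 did not pass under DMSO (-0.01 ± 0.18 (SE, adjusted p 0.974)). The Cx3cl1 call ended without KO DMSO 1 (-0.42, adjusted p 0.0864) and, under Etopo, without KO Etopo 2 (adjusted p 0.0933). The promoters of the 3 neighbours are shown because the genes were lower together; each runs from 250 bases before to 50 after the start (RefSeq, GRCm38.p6, plus strand), at chr8:94745434-94745733 for Ccl22, chr8:94771930-94772229 for Cx3cl1 and chr8:94810203-94810502 for Ccl17, with the only match to the motifs searched, a TATA box, in capitals.
Ccl22: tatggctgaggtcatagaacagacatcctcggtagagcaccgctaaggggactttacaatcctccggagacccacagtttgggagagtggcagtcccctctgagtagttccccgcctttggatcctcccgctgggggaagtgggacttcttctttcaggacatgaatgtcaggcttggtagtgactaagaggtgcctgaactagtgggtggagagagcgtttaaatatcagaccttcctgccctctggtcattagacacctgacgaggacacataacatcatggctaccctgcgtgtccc
Cx3cl1: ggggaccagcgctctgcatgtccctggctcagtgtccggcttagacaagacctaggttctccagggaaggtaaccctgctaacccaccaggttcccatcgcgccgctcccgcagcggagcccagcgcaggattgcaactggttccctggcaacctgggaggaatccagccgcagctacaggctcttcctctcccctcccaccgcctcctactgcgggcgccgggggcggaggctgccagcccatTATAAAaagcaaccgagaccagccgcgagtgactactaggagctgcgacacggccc
Ccl17: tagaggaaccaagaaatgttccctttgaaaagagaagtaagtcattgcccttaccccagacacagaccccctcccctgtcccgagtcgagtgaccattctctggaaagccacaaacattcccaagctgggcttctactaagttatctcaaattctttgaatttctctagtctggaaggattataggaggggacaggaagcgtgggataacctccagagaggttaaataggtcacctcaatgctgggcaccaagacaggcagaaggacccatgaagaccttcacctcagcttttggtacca

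The 3 motifs searched were the TATA box (TATAAA, plus strand), the NF-kB consensus by name and the core of the interferon-stimulated response element (GAAA, any bases NN, GAAA), the NF-kB and interferon motifs on both strands. A TATA box was in 12 of the 44 promoters that the table gave for 42 of the 56 genes, against 8.32% of 32851 promoters of the same length. An NF-kB match was in 11 of the 44, against 8.46% of all promoters, and an interferon response match in 3 of the 44, against 3.44%. These counts describe letters in the window and were not tested.

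Ccl20 and its receptor Ccr6 moved in opposite directions. Ccl20, which is known for drawing Ccr6-bearing lymphocytes and dendritic cells to epithelia, read 10.11, 10.46 and 10.06 in KO DMSO cells and 11.36, 11.23 and 11.05 in WT DMSO cells, a change of -1.01 ± 0.19 (SE, adjusted p 0.000397). It was lower in KO cells under the other treatments too, by 0.89 under Etopo, 1.20 under Topo and 0.65 under EtopoTopo, where 1 KO array (11.14) exceeded 1 WT array (11.00). The DMSO and Topo calls held whichever array was left out, while those of Ccl20 under Etopo (without KO Etopo 2) and EtopoTopo (without WT EtopoTopo 2 or 3 or KO EtopoTopo 2, -0.29 at the least) did not. Ccr6 read 9.55, 9.50 and 9.47 in KO DMSO cells and 8.77, 8.52 and 8.49 in WT DMSO cells, a change of 0.91 ± 0.13 (SE, adjusted p 2.57e-05). The Ccr6 change lay between 0.90 and 1.06 in all 4 comparisons, with 8.89 to 9.55 over all KO arrays and 7.75 to 8.77 over all WT arrays. Their promoters are shown as those of the ligand and receptor that moved apart (RefSeq, GRCm38.p6, plus strand, same window), at chr1:83116516-83116815 for Ccl20 and, for the 2 annotated starts of Ccr6, at chr17:8235793-8236092 and chr17:8242276-8242575. Capitals mark NF-kB matches; those of the second Ccr6 start overlap one another on both strands.
Ccl20: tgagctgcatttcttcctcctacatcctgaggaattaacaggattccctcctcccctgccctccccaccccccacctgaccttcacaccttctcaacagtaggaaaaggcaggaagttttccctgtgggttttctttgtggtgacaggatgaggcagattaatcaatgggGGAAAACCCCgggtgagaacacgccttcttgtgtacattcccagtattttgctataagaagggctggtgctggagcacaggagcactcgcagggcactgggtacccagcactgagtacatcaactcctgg
Ccr6 first start: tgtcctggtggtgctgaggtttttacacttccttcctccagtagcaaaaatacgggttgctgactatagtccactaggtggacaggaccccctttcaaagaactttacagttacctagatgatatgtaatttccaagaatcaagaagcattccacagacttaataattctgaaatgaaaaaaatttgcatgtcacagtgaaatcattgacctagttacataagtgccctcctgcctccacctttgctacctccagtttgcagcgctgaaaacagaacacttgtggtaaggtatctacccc
Ccr6 second start: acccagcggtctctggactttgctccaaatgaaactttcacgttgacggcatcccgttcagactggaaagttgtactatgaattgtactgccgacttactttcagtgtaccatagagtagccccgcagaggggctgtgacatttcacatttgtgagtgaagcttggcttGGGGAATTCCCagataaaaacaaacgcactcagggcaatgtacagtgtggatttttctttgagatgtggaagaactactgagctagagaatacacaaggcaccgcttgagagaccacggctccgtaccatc

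Several inflammatory Ccl ligands, which recruit macrophages, monocytes and effector T cells, were lower in KO cells. Ccl3 read 8.62, 8.47 and 8.12 in KO DMSO cells, against 10.02, 9.51 and 9.91 in WT DMSO cells, a change of -1.41 ± 0.17 (SE, adjusted p 2.05e-06). Ccl6 read 8.24, 8.19 and 8.38 in KO DMSO cells, against 9.74, 9.59 and 9.18 in WT DMSO cells, and Ccl9 read 9.47, 9.86 and 9.68 in KO DMSO cells, against 10.74, 10.72 and 10.18 in WT DMSO cells. For each of these 3 genes the lowest WT array of any treatment was brighter than the highest KO array of any treatment. The changes of Ccl6 and Ccl9 under DMSO were -1.24 ± 0.19 (SE, adjusted p 4.29e-05) and -0.88 ± 0.16 (SE, adjusted p 0.000269). Under the drugs Ccl3 differed by -1.94 (Etopo), -1.68 (Topo) and -1.78 (EtopoTopo), and Ccl6 differed most under Topo (-2.01). Ccl5 was bright in both genotypes, with 11.37, 11.54 and 11.57 in KO DMSO cells and 12.51, 12.18 and 12.16 in WT DMSO cells, a change of -0.79 ± 0.19 (SE, adjusted p 0.00526). Without the 2 DMSO arrays high in thymocyte transcripts the Ccl5 difference no longer passed (adjusted p 0.0882), and its calls under the drugs ended without WT Etopo 1 or 2, either KO Etopo array, WT Topo 1 or 2, KO Topo 1 or KO EtopoTopo 1 (adjusted p up to 0.225). Ccl2, which averaged above the dim mark, did not pass in any genotype comparison. Its change was -0.27 under DMSO and ran from -0.41 to 0.57 over the 4 treatments. Ccl4 averaged below the dim mark and did not pass in any genotype comparison. The receptor Ccr1 was dim as well.

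The Ccr8 ligands Ccl1 and Ccl8 were lower in KO cells. Ccl8 read 6.74, 7.02 and 7.20 in KO DMSO cells, against 8.94, 9.09 and 8.30 in WT DMSO cells, a change of -1.79 ± 0.30 (SE, adjusted p 0.000126). Ccl1 read 7.12, 7.36 and 7.34 in KO DMSO cells, against 8.77, 8.95 and 9.09 in WT DMSO cells, a change of -1.67 ± 0.20 (SE, adjusted p 2.48e-06). Taken out of log2, as ratios of geometric means, these changes put KO DMSO cells at 0.289 of WT DMSO cells for Ccl8 and 0.315 for Ccl1. The Ccl8 values of KO arrays (6.31 to 7.43) lay under the dim mark on KO Etopo 1, KO Topo 2 and KO EtopoTopo 2, and WT arrays read 7.90 to 9.48. The Ccl1 difference was -0.78 under Topo and -0.73 under EtopoTopo, both past the test; these calls ended without WT Topo 2, KO Topo 2, WT EtopoTopo 2 or 3 or KO EtopoTopo 2 (-0.43 at the least, adjusted p up to 0.235). The Ccl8 call under EtopoTopo ended without KO EtopoTopo 2 (adjusted p 0.0877). Ccr8 itself was dim, with 5.94, 5.73 and 5.94 in KO DMSO cells and 6.30, 6.39 and 5.99 in WT DMSO cells, and did not pass (-0.36 ± 0.16 (SE, adjusted p 0.138)). Ccl7, a ligand of Ccr2 and other monocyte receptors, fell under DMSO by 0.63, with KO DMSO arrays at 8.38, 9.01 and 8.12 overlapping WT DMSO arrays at 9.33, 8.86 and 9.22, and did not pass under the other treatments. Its call ended without WT DMSO 1 or 3 or KO DMSO 1 or 3 (adjusted p up to 0.163). Ccl11, which acts on eosinophils through Ccr3, was lower on every KO DMSO array (9.29, 9.31 and 9.40) than on every WT DMSO array (10.24, 9.85 and 10.35) but missed the threshold (-0.81 ± 0.31 (SE, adjusted p 0.0768)). These groups did not overlap in 31.9% of all genes.

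Ccl28, Cxcl17, Cxcl15, Cxcl5 and Cxcl14, each made by epithelia of other organs, were lower in KO DMSO cells, whereas Ccl25, which gut epithelium makes as well as thymus, did not pass under DMSO and was higher in KO cells under Etopo. Cxcl1, Cxcl2 and Cxcl3, which lie in a block with Cxcl5 and Cxcl15, passed in no genotype comparison (-0.31, 0.02 and -0.54 under DMSO). Ccl28, a ligand of Ccr10 and Ccr3 made by mucosal and glandular epithelium, read 6.61, 6.86 and 6.50 in KO DMSO cells, against 8.21, 8.71 and 7.95 in WT DMSO cells. Its change was -1.63 ± 0.18 (SE, adjusted p 6.33e-07), and under the drugs it lay between -1.81 and -1.57. Its KO DMSO mean lay under the dim mark; over all treatments KO arrays read 6.50 to 7.31 and WT arrays 7.95 to 8.85, with no overlap. Cxcl17, a mucosal chemokine, read 7.24, 7.25 and 7.07 in KO DMSO cells, against 8.31, 8.38 and 8.10 in WT DMSO cells, a change of -1.08 ± 0.15 (SE, adjusted p 2.13e-05). Cxcl15, known in mouse as a chemokine of lung epithelium, read 5.04, 5.38 and 5.29 in KO DMSO cells, against 6.79, 6.98 and 6.52 in WT DMSO cells, a change of -1.53 ± 0.24 (SE, adjusted p 7.85e-05); WT values lay at the dim mark and KO values under it. Cxcl5, which attracts neutrophils through Cxcr2, read 6.32, 6.39 and 6.24 in KO DMSO cells, against 7.27, 7.04 and 6.63 in WT DMSO cells, a change of -0.66 ± 0.18 (SE, adjusted p 0.0123) that ended without WT DMSO 1 (adjusted p 0.065). Cxcl14, a chemokine of skin and other epithelia, read 7.45, 7.39 and 7.61 in KO DMSO cells, against 7.86, 7.99 and 8.37 in WT DMSO cells, and fell by 0.59. It did not pass under the drugs, nor in a test of whether the genotypes differed in their response to a drug. Its DMSO call ended without WT DMSO 2 or 3 or KO DMSO 1 or 2 (adjusted p up to 0.188). Calls under the drugs that ended without 1 array were those of Cxcl17 (KO EtopoTopo 2), Cxcl15 (WT Etopo 2, either KO Etopo array, WT Topo 2, KO Topo 2 or 3) and Cxcl5 (KO Etopo 1, any Topo array but KO Topo 1, KO EtopoTopo 1), with adjusted p up to 0.203.

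Xcl1 and its receptor Xcr1, the pair through which Xcr1-bearing dendritic cells are placed in the medulla, were both lower in KO cells under DMSO. Xcl1 read 6.54, 6.79 and 6.64 in KO DMSO cells, against 8.50, 8.34 and 7.99 in WT DMSO cells, a change of -1.62 ± 0.17 (SE, adjusted p 4.17e-07). Xcr1 read 7.01, 6.86 and 6.87 in KO DMSO cells, against 7.98, 7.64 and 7.88 in WT DMSO cells, a change of -0.92 ± 0.12 (SE, adjusted p 5.86e-06). Both were also lower in KO cells under Etopo and Topo, Xcl1 by 0.96 and 0.83 and Xcr1 by 0.49 and 0.38. Under EtopoTopo neither passed: Xcl1 differed by -0.46 ± 0.19 (SE, adjusted p 0.143) and Xcr1 by 0.27 ± 0.13 (SE, adjusted p 0.235). The Xcr1 calls under the single drugs ended without WT Etopo 2, either KO Etopo array, WT Topo 2 or 3 or KO Topo 2 or 3 (adjusted p up to 0.166). Cxcl13, the B cell chemokine that acts through Cxcr5, read 10.67, 11.05 and 10.40 in KO DMSO cells, against 11.78, 11.83 and 11.69 in WT DMSO cells, a change of -1.06 ± 0.16 (SE, adjusted p 5.48e-05). It was lower in KO cells by 0.98 under Etopo and did not pass under Topo (-0.48 ± 0.16 (SE, adjusted p 0.0545)) or EtopoTopo (-0.02 ± 0.18 (SE, adjusted p 0.952)). Cxcr5 went the other way, with 8.07, 8.32 and 8.17 in KO DMSO cells, against 7.74, 7.29 and 7.45 in WT DMSO cells, a change of 0.69 ± 0.22 (SE, adjusted p 0.0308). It was higher in KO cells under Topo by 0.99 and did not pass under Etopo or EtopoTopo. Its DMSO call ended without WT DMSO 2 or 3 or KO DMSO 2 or 3 (adjusted p up to 0.142).

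**Figure D2:**
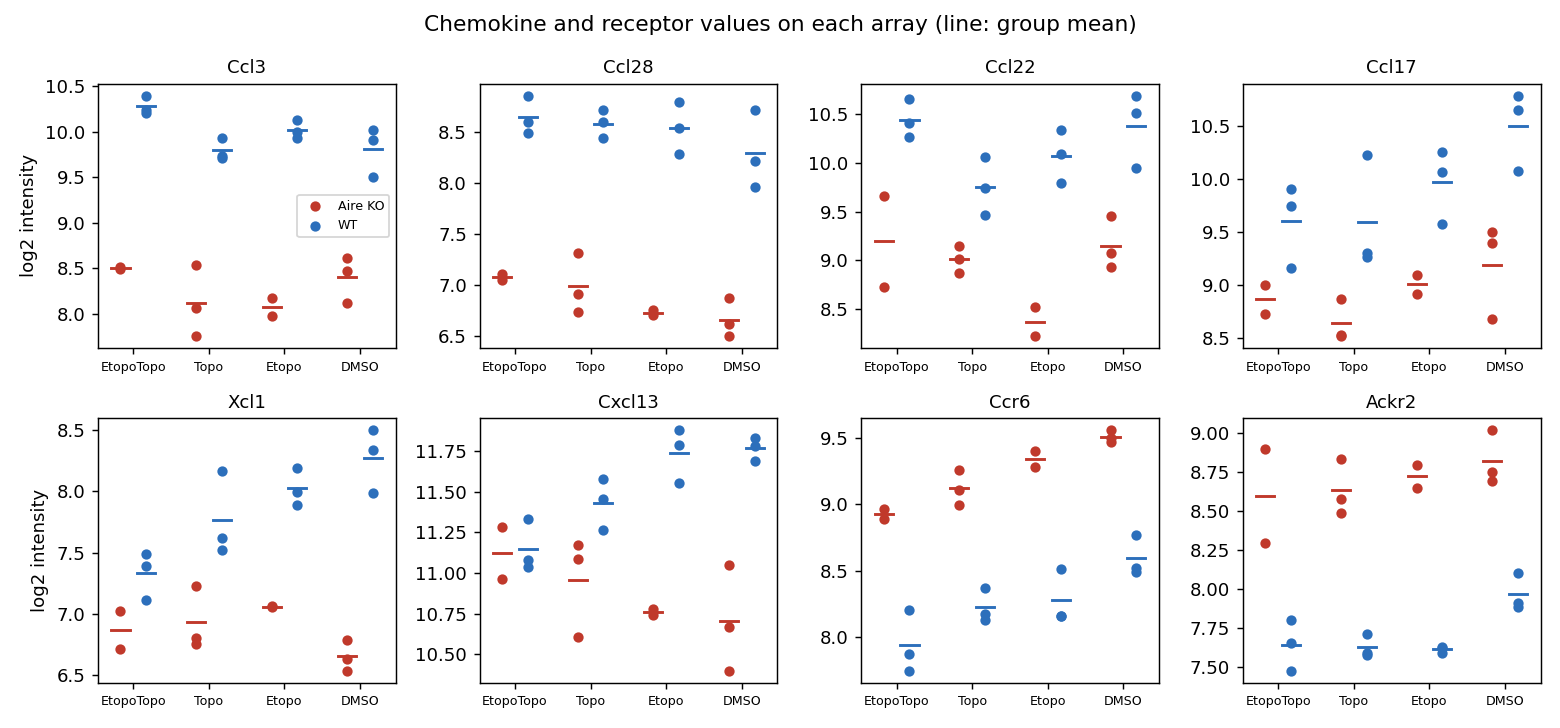
Log2 intensity (y axis) of 8 genes on each of the 22 arrays by treatment (x axis), with KO in red left of WT in blue and a line at each group mean. KO points of Ccl3 and Ccl28 lie under all WT points, KO points of Ccr6 and Ackr2 lie over all WT points, and the genotypes meet under EtopoTopo for Cxcl13.

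Among receptors, Ackr2, an atypical receptor that takes up inflammatory Ccl chemokines, was higher in KO cells. It read 9.01, 8.69 and 8.75 in KO DMSO cells, against 7.89, 7.91 and 8.11 in WT DMSO cells, a change of 0.85 ± 0.14 (SE, adjusted p 0.000138). The change was 1.11 under Etopo, 1.00 under Topo and 0.95 under EtopoTopo. Ccr7, the receptor of Ccl19 and Ccl21, read 12.15, 11.58 and 11.63 in KO DMSO cells, against 11.57, 10.67 and 10.82 in WT DMSO cells, a change of 0.77 ± 0.20 (SE, adjusted p 0.00828). In each genotype its highest DMSO value was on the array with the most thymocyte transcripts, and without both of those arrays the change was 0.86 (adjusted p 0.0022). Without WT DMSO 2 or KO DMSO 1 alone the Ccr7 call ended (0.59 at the least, adjusted p up to 0.0729). Ccr7 was also higher in KO cells under Topo, by 0.88, and did not pass under Etopo or EtopoTopo. Cxcr6, the receptor of Cxcl16, and the receptors Cxcr2 and Ccr1l1 fell under DMSO by 0.49, 0.50 and 0.43, all 3 with means under the dim mark in both genotypes, and all 3 calls ended after quantile normalization (adjusted p 0.107, 0.0837 and 0.276). The calls of Cxcr2 and Ccr1l1 ended without WT DMSO 2 or 3, KO DMSO 3 or, for one or the other, KO DMSO 1 or 2 (adjusted p up to 0.186). That of Cxcr6 held whichever DMSO array was left out. Cxcr6 was also called lower in KO cells under Topo, again with both means under the dim mark. This Topo call held after quantile normalization (-0.38, adjusted p 0.0308). It ended without WT Topo 1, WT Topo 3 or KO Topo 1 (adjusted p up to 0.0857). The other atypical receptors did not pass under DMSO: Ackr1 differed by -0.28, Ackr3 by -0.30 and Ackr4 by -0.05.

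Several chemokines best known from thymus did not pass between genotypes under DMSO. Ccl19 read 12.75, 12.97 and 13.003 in KO DMSO cells and 13.07, 12.93 and 13.07 in WT DMSO cells, a difference of -0.11 with a 95% interval of -0.36 to 0.13. Ccl25 read 13.01, 12.85 and 13.27 in KO DMSO cells and 12.74, 12.74 and 12.85 in WT DMSO cells (0.27 ± 0.13 (SE, adjusted p 0.156)). Under Etopo Ccl25 was higher in KO cells by 0.54, a call that ended without WT Etopo 2 or either KO Etopo array. Its receptor Ccr9 spanned a wide range under DMSO, with 10.07, 8.33 and 7.71 in KO DMSO cells and 9.50, 8.27 and 8.35 in WT DMSO cells. The high Ccr9 values were those of KO DMSO 1 and WT DMSO 1, the arrays with the most thymocyte transcripts. The interferon-induced ligands of Cxcr3 were bright: Cxcl10 read 13.33, 13.20 and 13.06 in KO DMSO cells and 13.25, 12.82 and 13.23 in WT DMSO cells, with a difference of 0.10 (95% interval -0.18 to 0.37). Cxcl9 differed by -0.38 ± 0.17 (SE, adjusted p 0.143) and Cxcl11, which the annotation lists as a transcribed pseudogene in this strain, by 0.40 ± 0.19 (SE, adjusted p 0.158). Under EtopoTopo Cxcl11 was higher in KO than in WT cells by 1.07, with 10.91 and 9.85 in KO and 9.07, 9.56 and 9.29 in WT. Its mean was 10.386 with DMSO and 10.38 with EtopoTopo in KO cells, and 9.985 and 9.305 in WT cells. The EtopoTopo call ended without KO EtopoTopo 1 (0.54). Cxcr3 differed by -0.29, the homing ligand Cxcl12 by -0.26 and its receptor Cxcr4 by -0.17, none of them past the test. Cxcl16, a membrane chemokine, rose by 0.37 under DMSO (adjusted p 0.0475), the only ligand of the 34 to do so; the call ended when any 1 DMSO array other than WT DMSO 1 was left out (0.22 at the least, adjusted p up to 0.311). Ccl21a shares its probe with 6 other symbols and was therefore not counted; that probe read 12.04 on KO EtopoTopo 1 and 12.79 to 13.56 on the other arrays.

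Markers of other cells were read beside these chemokines, under DMSO first, when 19.4% of all genes passed. NK and effector T cell markers averaged 6.41 to 6.57 on KO DMSO arrays and 6.98 to 7.15 on WT DMSO arrays, with 2 of 7 markers lower in KO and 3 (Gzma, Klrd1 and Ncr1) under the dim mark. Macrophage and dendritic cell markers averaged 7.80 to 8.01 on KO DMSO arrays and 8.05 to 8.22 on WT DMSO arrays, with 3 of 12 lower, 1 higher and Clec9a under the dim mark. Of 14 thymocyte markers none passed, and of 11 mature MEC markers 1 was higher. Of 9 markers of stroma and endothelium 1 was higher and 2 were lower, of 5 of cortical epithelium 1 was lower, and of 7 tuft-cell markers none passed. B cell markers, of which 1 was higher and 2 were lower among 6, averaged 8.14 to 8.28 on KO DMSO arrays and 8.24 to 8.48 on WT DMSO arrays. Under Etopo, Topo and EtopoTopo 12.6%, 15% and 10.4% of all genes passed. Of 7 NK and effector T cell markers 1 was lower in KO with Etopo, 2 with Topo and 1 with EtopoTopo, and 0 were higher. Of 12 macrophage and dendritic cell markers 2, 1 and 1 were lower, and 1 was higher with each. Tuft-cell markers averaged 9.29 to 9.63 on KO Etopo arrays and 9.67 to 10.05 on WT Etopo arrays, with 1 of 7 lower. With EtopoTopo they averaged 9.53 to 10.15 on KO arrays and 10.35 to 10.51 on WT arrays, with 3 of 7 lower. The part of these markers' cells in the chemokine differences was not tested.

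Of the 56 genes, 35 lay in 9 blocks of neighbouring chemokine or receptor genes, and 16 of these 35 were lower and 0 higher in KO DMSO cells. Of the other 21 genes 6 were lower and 5 higher, and 12% of all genes were lower; the difference was not tested. On chromosome 11 the block Ccl5, Ccl9, Ccl6, Ccl3 and Ccl4 had 4 of 5 genes lower in KO DMSO cells, and the block Ccl2, Ccl7, Ccl11, Ccl12, Ccl8 and Ccl1 had 3 of 6. All 3 of Ccl22, Cx3cl1 and Ccl17 on chromosome 8 were lower. Of Cxcl5, Cxcl3, Cxcl15, Cxcl1 and Cxcl2 on chromosome 5, 2 were lower, and of Cxcl9, Cxcl10 and Cxcl11 on the same chromosome 0 passed. The receptor block on chromosome 9 had 3 of 7 genes lower, namely Cxcr6, Xcr1 and Ccr1l1. The 3 blocks of 2 genes (Cxcr2 with Cxcr1, Ccl26 with Ccl24, and Cx3cr1 with Ccr8) held 1 lower gene, Cxcr2. Neighbouring paralogs are alike in sequence, and cross-hybridisation of their probes was not tested.

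**Figure D3:**
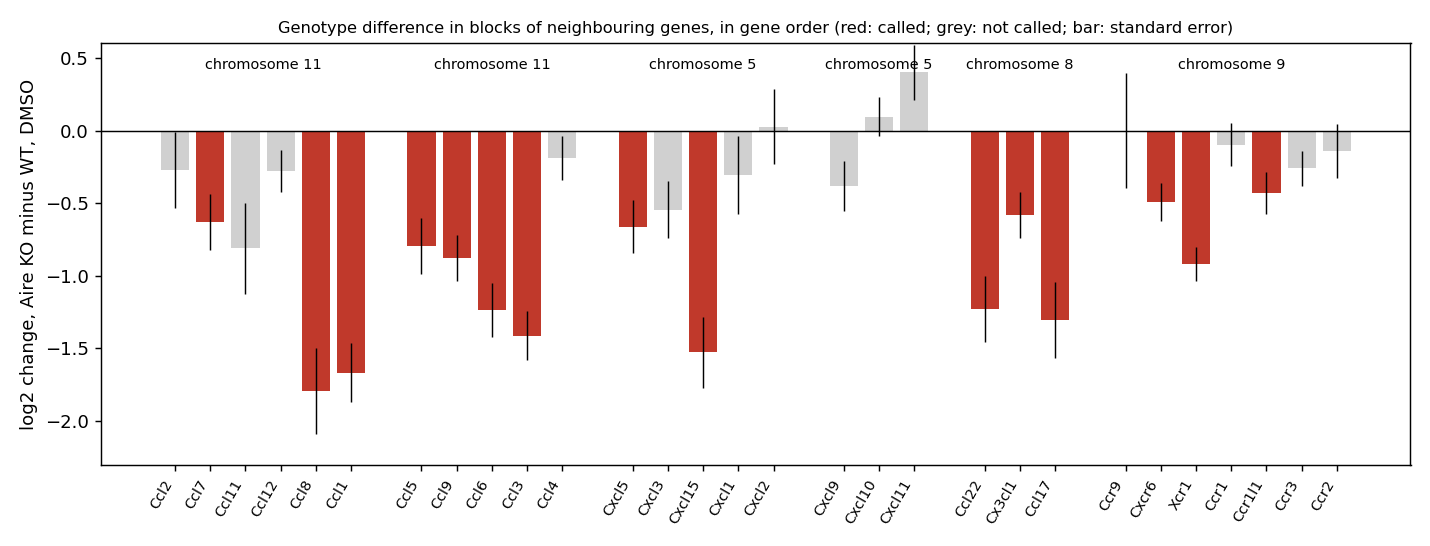
Log2 change of KO DMSO against WT DMSO cells (y axis, bars from 0, with 1 standard error) for chemokine and receptor genes in the 6 blocks of 3 or more neighbouring genes, each in chromosome order; red bars passed the test and grey bars did not. All 3 genes of the chromosome 8 block are red, from -1.31 to -0.58, and none of Cxcl9, Cxcl10 and Cxcl11.

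Beyond ligands and receptors, 57 genes of chemokine signalling and turnover were measured, and 11 passed under DMSO, 6 higher and 5 lower in KO. That was 19.3% of the list, against 19.4% of all genes. The platelet chemokines Ppbp and Pf4, which lie between Cxcl5 and Cxcl3 and whose symbols are outside the rule, fell by 3.18 and 1.05 and were lower in all 4 comparisons. Dock2, which links chemokine receptors to Rac activation and migration in leukocytes, rose by 0.98 under DMSO and was higher in all 4. Adam17, a protease that sheds membrane proteins including Cx3cl1, rose by 0.64 and was higher in all 4. The kinase Ptk2b rose by 0.77 and the small GTPase Rap1a by 0.54 under DMSO. The matrix proteases Mmp2 and Mmp12, which can cleave chemokines, fell by 0.80 and 0.59. Under Etopo 12 of the 57 passed (6 higher and 6 lower), under Topo 12 (5 higher and 7 lower) and under EtopoTopo 13 (2 higher and 11 lower). These were 21.1%, 21.1% and 22.8% of the list, against 12.6%, 15% and 10.4% of all genes.

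Few of these genes passed with the drugs given singly. In WT cells Etopo changed none of the 56 by limma, with 6 (10.7%) at an unadjusted p under 0.05, when 0.00506% of all genes passed and 5.55% had an unadjusted p under 0.05. In KO cells Etopo changed none either, again with 6 at an unadjusted p under 0.05, when 0% of all genes passed and 3.58% had an unadjusted p under 0.05. Topo raised 2 genes in WT cells, Ackr4 and Ccl6, when 2.21% of all genes passed (0.83% higher and 1.38% lower). With Topo in WT cells 18 of the 56 (32.1%) had an unadjusted p under 0.05 by limma, against 11.5% of all genes. Topo raised 1 in KO cells, Ackr4, when 1.03% of all genes passed (0.253% higher and 0.78% lower). In that comparison 11 of the 56 (19.6%) had an unadjusted p under 0.05, against 11.6% of all genes. After quantile normalization 4 passed in WT cells, 3 higher and 1 lower. All comparisons of 1 genotype's drugs share its DMSO arrays. The tests had no term for pairs, although same-numbered arrays went together for Etopo in WT cells and Topo in KO cells.

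Ackr4, the atypical receptor that takes up Ccl19, Ccl21 and Ccl25, rose with Topo in both genotypes. In WT cells it read 8.83, 8.63 and 8.71 with Topo, against 7.94, 8.08 and 8.29 with DMSO, a change of 0.62 ± 0.14 (SE, adjusted p 0.0244). In KO cells it read 9.08, 8.38 and 8.74 with Topo, against 7.96, 8.19 and 8.02 with DMSO, a change of 0.68 ± 0.14 (SE, adjusted p 0.0252). With EtopoTopo it read 8.87 and 8.86 in KO cells (0.81 ± 0.16 (SE, adjusted p 0.00465)) and 8.76, 8.94 and 8.84 in WT cells (0.74 ± 0.14 (SE, adjusted p 0.00208)). In none of these 4 comparisons did the drug and DMSO arrays overlap; they did not for 16.4% and 46.2% of all genes with Topo and EtopoTopo in KO cells and 20% and 30.5% in WT cells. The Topo calls ended without the 2 DMSO arrays high in thymocyte transcripts (adjusted p 0.0766 in KO and 0.122 in WT) and rest on single arrays: the WT call ended without WT DMSO 1 or 2 or any WT Topo array (0.54 at the least, adjusted p up to 0.141), and the KO call without KO DMSO 1 or 3 or KO Topo 1 or 3 (0.51 at the least, adjusted p up to 0.139). Tuft-cell markers averaged 10.35 to 10.51 with EtopoTopo and 10.03 to 10.25 with Topo in WT cells, against 9.17 to 9.45 with DMSO, and 9.73 to 10.16 with Topo in KO cells, against 9.06 to 9.39 with DMSO; their part in the Ackr4 change was not tested. Ccl6 read 10.46, 10.28 and 10.42 in WT Topo cells, against 9.74, 9.59 and 9.18 in WT DMSO cells, a change of 0.88 ± 0.19 (SE, adjusted p 0.0131). In KO cells Topo gave Ccl6 a change of 0.10 ± 0.19 (SE, adjusted p 0.86). The Ccl6 call in WT cells ended without WT DMSO 3, WT Topo 1 or WT Topo 3 (0.72 at the least, adjusted p up to 0.0955).

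EtopoTopo changed 8 of the 56 genes (14.3%) in WT cells, 1 higher and 7 lower, when 10.9% of all genes passed (3.6% higher and 7.28% lower). In that comparison 14 of the 56 (25.0%) had an unadjusted p under 0.05 by limma, against 26.1% of all genes. Ccr9 read 7.43, 7.39 and 7.28 in WT EtopoTopo cells, against 9.50, 8.27 and 8.35 in WT DMSO cells, a change of -1.34 ± 0.40 (SE, adjusted p 0.033) that ended without WT DMSO 1 (-0.94, adjusted p 0.199) or any WT EtopoTopo array. Xcl1 read 7.12, 7.40 and 7.49, against 8.50, 8.34 and 7.99 with DMSO, a change of -0.94 ± 0.17 (SE, adjusted p 0.00129). Xcr1 read 7.14, 7.22 and 7.51, against 7.98, 7.64 and 7.88 with DMSO, a change of -0.55 ± 0.12 (SE, adjusted p 0.00497). Each of these had all its EtopoTopo arrays under all its DMSO arrays, and 30.5% of all genes did not overlap between these groups. Thymocyte markers averaged 6.93 to 7.18 on WT EtopoTopo arrays and 7.37 to 8.30 on WT DMSO arrays, with 2 of 14 lower. NK and effector T cell markers averaged 6.51 to 6.71 on WT EtopoTopo arrays and 6.98 to 7.15 on WT DMSO arrays, with 2 of 7 lower. Macrophage and dendritic cell markers averaged 7.79 to 7.90 on WT EtopoTopo arrays and 8.05 to 8.22 on WT DMSO arrays, with 2 of 12 lower, and the part of these cells in the falls was not tested. After quantile normalization 7 genes passed, 2 higher and 5 lower. Ccl17 fell by 0.90, Cxcl11 by 0.68, Ccr6 by 0.65 and Cxcl13 by 0.62, and Ackr4 was the gene that rose. The calls of Ccl17, Cxcl11 and Cxcl13 ended without WT EtopoTopo 1 and without others of the WT DMSO and WT EtopoTopo arrays in turn (adjusted p up to 0.128). With age as a covariate 2 of the 8, Ccl17 and Xcr1, still passed, and without the 2 WT EtopoTopo arrays whose labels conflict none did. In the signalling list 10 of 57 genes (17.5%) passed in WT cells, 6 higher and 4 lower, with Plcb2 (1.38), Pik3cg (1.22), Rgs13 (1.08) and Vav1 (1.00) among those that rose. Of 7 tuft-cell markers 6 were higher with EtopoTopo in WT cells, with a median change of 1.24 over the list. The part of tuft cells in the rises of the signalling genes was not tested.

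With EtopoTopo in KO cells 19 of the 56 (33.9%) had an unadjusted p under 0.05 by limma, against 41.4% of all genes. EtopoTopo was followed there by 13 calls (23.2% of the 56), 10 higher and 3 lower, when 22.8% of all genes passed (11.1% higher and 11.7% lower). They rest on KO EtopoTopo 1, the array of narrow spread: without it 0 of the 56 passed and without KO EtopoTopo 2 23 did, and with age as a covariate 0 passed. After quantile normalization 8 passed, 7 higher and 1 lower. The genes that rose were Ackr4, Ccl1, Ccl12, Ccr1l1, Cx3cr1, Cxcl17, Cxcr1, Cxcr3, Cxcr6 and Xcr1, and those that fell were Cxcr5, Cxcl2 and Ccr6. Cxcr5 read 6.46 and 7.80 in KO EtopoTopo cells, against 8.07, 8.32 and 8.17 in KO DMSO cells, and Xcr1 read 7.66 and 7.45, against 7.01, 6.86 and 6.87. Ccr6 read 8.89 and 8.96, against 9.55, 9.50 and 9.47, and was lower with EtopoTopo in both genotypes, by 0.58 in KO and 0.65 in WT cells.

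**Figure D4:**
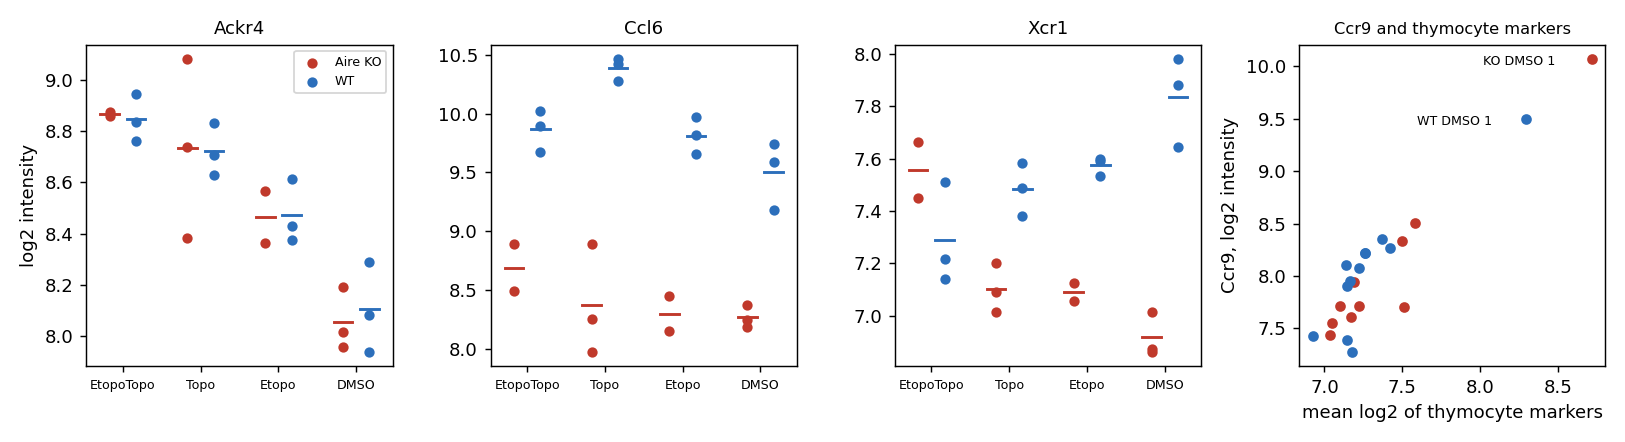
First 3 panels: log2 intensity (y axis) of Ackr4, Ccl6 and Xcr1 on each array by treatment (x axis), KO in red left of WT in blue, with lines at group means. Last panel: Ccr9 (y axis, log2) against the mean log2 of thymocyte markers (x axis) on the 22 arrays, where KO DMSO 1 (10.07 and 8.72) and WT DMSO 1 (9.50 and 8.30) stand at the upper right.

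The test of whether a drug acted differently in the genotypes, the drug effect in KO minus that in WT, passed for 0 of the 56 genes with Etopo (3 at an unadjusted p under 0.05, as were 4.59% of all genes, and 0% of all genes past the test by limma). It passed for 0 with Topo (8, or 14.3%, at an unadjusted p under 0.05, against 4.74% of all genes, of which 0.0759% passed). With EtopoTopo it passed for 4 genes, Xcr1, Xcl1, Cxcl13 and Ccl12, when 2.46% of all genes passed (2.35% higher in KO than WT and 0.106% lower). Xcr1 rose by 0.64 in KO cells and fell by 0.55 in WT cells, a difference of 1.18 ± 0.18 (SE, adjusted p 0.000703). For Xcl1 the EtopoTopo change was 0.22 in KO cells, which did not pass, and -0.94 in WT cells. For Cxcl13 it was 0.42 in KO cells, which did not pass, and -0.62 in WT cells. Ccl12, a dim gene, rose by 0.74 in KO cells and had a change of -0.11 in WT cells that did not pass.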

How the data were processed

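RNA of 22 samples had been extracted with TriZol, amplified and hybridised to Affymetrix ST1.0 arrays, 1 colour, per the labels. The deposited values are linear probe intensities, which the submitters' processing notes credit to RMA in Affymetrix Power Tools, without versions; log2 was taken here, with no pseudocount and no further normalization. The deposited arrays still differ in spread and median, which quantile normalization, an alternative, removes. Of 24922 probes, 21425 carried 1 gene symbol in GEO's platform annotation, 1399 several and 2098 none; only the first kind was used, 1 probe per gene (the brightest), which left 19752 genes. Promoters came from RefSeq (GRCm38.p6).

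Groups were taken from the sample titles. One linear model with a mean for each of the 8 groups was fitted to all 22 arrays (limma 3.58.1 in R 4.3.3, with eBayes moderation, 14 degrees of freedom from the residuals and 7.22 from the prior), and p-values were adjusted by Benjamini-Hochberg over the 19752 genes. A gene was called at an adjusted p under 0.05. The script was tested on simulated data. The groups' 2 or 3 arrays limit the precision. The labels do not say that a replicate number is shared between groups. Deviations from group means of same-numbered arrays correlated over 0.1 in all 3 pairs for WT Etopo with WT DMSO (0.335 to 0.592) and KO Topo with KO DMSO (0.167 to 0.412), and not in every pair for the other 8 comparisons of 2 groups. The main model had no term for pairs, so its tests of Etopo in WT cells and Topo in KO cells ignored any pairing. WT DMSO 3 and WT Etopo 3 were the only 4-week arrays of their groups. Thymocyte markers were highest in their groups on KO DMSO 1 (8.72) and KO Topo 1 (7.58). Pairing and these shared features cannot be told apart. The alternatives were quantile normalization, a filter on dim genes, the mean of a gene's probes, age as a covariate, a replicate block, and arrays left out singly or in pairs; the fit of 6-week arrays alone was chosen after seeing the data. The genes, marker lists, signalling list and tests were chosen with earlier results of these data known. Named with per-array values were genes called in some comparison, the ligands and receptors of thymus and the atypical receptors whether called or not, and some uncalled genes of large change.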

Additional observations from a re-analysis of the deposited data

Results flagged for a closer look

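For 4 genes the response to EtopoTopo differed between the genotypes by the test of that difference itself (limma interaction term, drug effect in KO minus drug effect in WT). The difference was 1.18 for Xcr1 (adjusted p 0.000703), 1.16 for Xcl1 (adjusted p 0.0171), 1.04 for Cxcl13 (adjusted p 0.0247) and 0.86 for Ccl12 (adjusted p 0.0352), on the log2 scale. Xcr1 read 7.66 and 7.45 on the 2 KO EtopoTopo arrays, against 7.01, 6.86 and 6.87 on KO DMSO arrays, and 7.14, 7.22 and 7.51 on WT EtopoTopo arrays, against 7.98, 7.64 and 7.88 on WT DMSO arrays. Both KO EtopoTopo arrays lay above all KO DMSO arrays and all 3 WT EtopoTopo arrays below all WT DMSO arrays; such groups did not overlap for 46.2% of all genes in KO and 30.5% in WT cells. Xcr1 passed in 18 of 18 alternatives, with an adjusted p of 0.0115 without KO EtopoTopo 1 and 0.0424 without the 2 WT EtopoTopo arrays whose labels conflict. Xcl1 passed in 12 of 18, Cxcl13 in 10 of 18 and Ccl12, which averaged under the dim mark, in 6 of 17; without KO EtopoTopo 1 their adjusted p-values were 0.18, 0.25 and 0.444. Ages differed with this treatment, and with age as a covariate Xcr1, Xcl1 and Cxcl13 passed (adjusted p 0.00125, 0.00745 and 0.0179) and Ccl12 did not (0.053). That covariate was 1 effect for both genotypes, set only by WT DMSO 3 and WT Etopo 3 against the other arrays of their groups. It therefore cannot show an age effect that differs between genotypes.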

How the results depend on the processing

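Over the 1345 alternative values of single gene calls, 1077 kept direction and threshold, 268 kept direction only and 0 reversed. Quantile normalization gave 4 calls for Topo in WT cells (2 as reported), 8 for EtopoTopo in KO cells (13 as reported) and 2 for the EtopoTopo difference between genotypes (4 as reported). Age as a covariate gave 2 calls for EtopoTopo in WT cells (8 as reported) and 0 in KO cells. Without WT DMSO 1 and KO DMSO 1, Topo in KO cells gave 0 (1 as reported) and the EtopoTopo difference 2. Without WT EtopoTopo 1 and 2, the genotype comparison under EtopoTopo gave 7 (16 as reported), EtopoTopo in WT cells 0 and the EtopoTopo difference 1. The causes were not tested, beyond that fewer arrays entered the last 2 fits. The dim filter and the mean of a gene's probes changed no count of calls by over 1.5 times.

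With 1 array left out in turn, the genotype comparisons gave 21 to 27 calls under DMSO, 14 to 19 under Etopo, 15 to 19 under Topo and 12 to 15 under EtopoTopo. Topo gave 0 to 2 calls in WT cells (0 without WT Topo 1 or 3, 1 without any 1 WT DMSO array) and 0 to 2 in KO cells (0 without KO DMSO 1 or 3 or KO Topo 1 or 3, 2 without KO DMSO 2). EtopoTopo gave 5 to 6 in WT cells (5 without WT DMSO 1 or WT EtopoTopo 1 or 3) and 0 to 23 in KO cells (0 without KO EtopoTopo 1, 23 without KO EtopoTopo 2, 8 without KO DMSO 1 and 6 without KO DMSO 3). The EtopoTopo difference gave 1 to 13 (1 without KO DMSO 1, WT EtopoTopo 1 or KO EtopoTopo 1, 2 without WT DMSO 2 or WT EtopoTopo 3, 13 without KO EtopoTopo 2), and the other comparisons 0 throughout. Where a group was left with 1 array, that array was assumed to vary like the other groups.

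The replicate number was also fitted as a block, as effects shared by all 8 groups. In the 2 comparisons whose same-numbered arrays went together the calls stayed the same, with 0 for Etopo in WT cells and 1 for Topo in KO cells (Ackr4). Same-numbered arrays of other groups went apart, such as WT Topo with WT DMSO (correlations -0.515 to -0.09). The block therefore cannot show what pairing in those 2 comparisons alone would change. In the others it gave 25 calls under DMSO, 19 under Etopo, 20 under Topo and 14 under EtopoTopo between genotypes, 3 for Topo and 8 for EtopoTopo in WT cells, 12 for EtopoTopo in KO cells, and 4 for the EtopoTopo difference. The 6-week arrays alone, an alternative chosen after seeing the data, gave 23 calls under DMSO, 18 under Etopo and 22 under Topo between genotypes, and 2 and 1 for Topo in WT and KO cells; EtopoTopo has no 6-week arrays.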
